A study of Mus musculus with 2 samples.

Results

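Xcl1 high cells were defined as cells with at least 3 Xcl1 UMIs (unique molecular identifiers, each counting 1 captured RNA molecule). They were set against Xcl1 undetected cells, in which no Xcl1 UMI was counted. Both were taken from RNA barcodes with at least 2000 UMIs and under 20% mitochondrial UMIs, a limit that 4801 of 10387 barcodes met. Of these 4801 cells, 347 were Xcl1 high, 3676 were Xcl1 undetected, and 778 with 1 or 2 Xcl1 UMIs belonged to neither side. The values that chose the cells are the Xcl1 counts themselves, so the Xcl1 level is given as a description only.

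All cells of both sides came from 1 RNA library and 1 matched T cell receptor (TCR) library of a single spleen sort. They are GD2TIF cells, mouse T cells with a Cas9 transgene that were activated and spin-infected with a retrovirus. The virus targets Bcor, a transcriptional corepressor, and Zc3h12a, the gene of the endoribonuclease Regnase-1, and it delivers 14g2a, a chimeric antigen receptor against the ganglioside GD2. Each C57BL/6 host with an intact immune system received 1000000 cells, and CD8+Thy1.1+ cells were sorted from spleen 2 months later. High and undetected cells therefore share the Cas9 transgene, the targeted genes, the receptor, the host strain and the time point. How many mice contributed, and the age of the hosts, are not given in the sources used here. Cells are not replicates, and no second sample exists on either side, so no test was run. Intervals are 95% intervals that reflect counting error and say nothing of how mice differ.

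Xcl1 encodes lymphotactin, a chemokine that CD8 T cells and natural killer (NK) cells release. Its receptor, Xcr1, is known as a marker of the dendritic cells that cross-present antigen to CD8 T cells. In T cells, engagement of the antigen receptor quickly induces the transcription factor genes of the Egr and Nr4a families, and later Myc and the machinery that builds ribosomes. Exhausted T cells are recognised by inhibitory receptors such as PD-1 (Pdcd1) and by the factor Tox, and memory or stem-like T cells by Tcf7 and Il7r.

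The 347 Xcl1 high cells were 7.23% of the 4801 cells (Clopper-Pearson interval 6.51% to 7.997%). They held 2259 of the 3245 Xcl1 UMIs, or 69.6%. Their median was 4 Xcl1 UMIs and their maximum 90. The distribution had a long tail, since 45 cells with at least 10 Xcl1 UMIs held 28.8% of all Xcl1 UMIs. Just inside the threshold, 117 cells had exactly 3 Xcl1 UMIs, at 880 counts per 1000000 UMIs (CPM, summed over the cells). Just outside it, 208 cells had 2, at 615 CPM. A further 570 cells had 1.

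**Figure D1:**
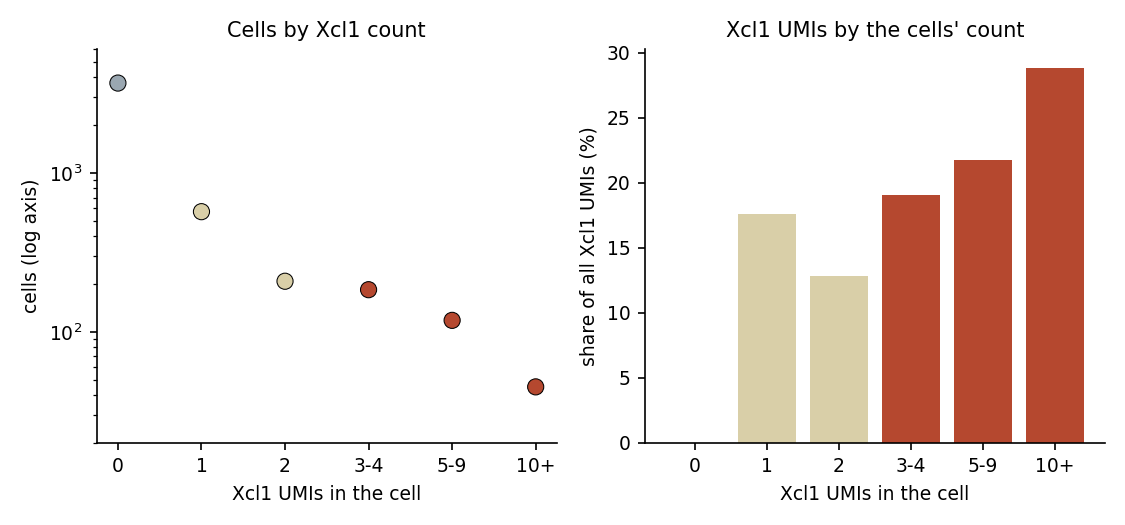
Left, number of cells on a log axis by the number of Xcl1 UMIs in the cell. Right, the share of all Xcl1 UMIs (%) held by each class, with undetected cells in grey, cells on neither side in beige and Xcl1 high cells in red. Cell numbers fall from 3676 with no UMI to 45 with 10 or more, and those 45 cells hold 28.8% of the Xcl1 UMIs.

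The sides differed in depth. Xcl1 high cells had a median of 3133 UMIs and 1428 genes, and undetected cells 2577 UMIs and 1221 genes. The share of cells that were Xcl1 high was 4.44% among cells of 2000 to 2500 UMIs and 16.5% among cells of at least 4000 UMIs. Mitochondrial shares were alike, with medians of 3.32% and 3.30%. Barcodes with at least 8000 UMIs made up 2.02% of the high and 0.435% of the undetected cells, and barcodes with 2 or more TCR beta (TRB) sequences 6.34% and 3.18%. A TRB sequence was recovered in 38.9% of the high and 47.4% of the undetected cells. The part of depth, of possible doublets and of TRB recovery in the folds below was not tested beyond the values given beside them.

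Both sides carried T cell transcripts. The summed level of 9 T cell markers was 11033 CPM in high and 12273 CPM in undetected cells, and Cd3e, a subunit of the TCR complex, stood at 1461 and 1502 CPM. Of 15 measured genes of the TCR complex and proximal signalling none differed by 1.5-fold, against 6.97% of all measured genes. Their median fold was 0.94. Only 15 of the 4801 barcodes lacked any Cd3d, Cd3e or Cd3g UMI, with a median of 2151 UMIs. Of those, 1 had an Xcl1 UMI and none was Xcl1 high, where the limit of 3 counts used for a count of 0 allows a share of up to 20%. The 11 NK markers in the matrix summed to 133 CPM in high and 271 CPM in undetected cells, of which Cd7 alone gave 122 and 255 CPM. Ncr1 and Klrb1c were at 0 on both sides, and Klra4, Klra7 and Klrc1 at 0 in high cells against 2, 2 and 9 UMIs in undetected cells. Cells with at least 2 NK markers, counted without Klrd1 and Klrk1, made up 0.865% of the high and 0.490% of the undetected cells. The 10 B cell markers summed to 673 and 1178 CPM, with Ms4a1 and Bank1 at 0 in high cells. Single undetected barcodes held 1823 of the 6482 Ighm UMIs and 2202 of the 3337 Igkc UMIs, and the Ighm fold was 1.01 in place of 0.74 without the top cell of each side. Cells with at least 2 B cell markers, counted without Ighm and Cd74, made up 7.49% of the high and 5.20% of the undetected cells. This share differed in the opposite direction to the summed level, which includes both genes. The shares of cells with markers were not matched for depth. Markers of CD4 and regulatory T cells summed to 35.3 and 30.3 CPM, with Cd4 and Foxp3 at 0 in high cells. The 10 effector CD8 markers summed to 512 and 1553 CPM, of which Ccl5 alone gave 248 and 1155 CPM. Cells with at least 3 of these markers made up 3.46% of the high and 8.03% of the undetected cells. The part of these cells in the folds below was not tested beyond the folds given without them.

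Folds are the summed CPM of Xcl1 high cells divided by that of Xcl1 undetected cells. A gene counted as measured when at least 20 UMIs would be expected in the high cells at equal CPM, which 6889 genes met. Among them 162, or 2.35%, were at least 1.5-fold higher in Xcl1 high cells and 318, or 4.62%, at least 1.5-fold lower, together 6.97%. The median fold over the 6889 genes was 1.00. Of the 8 reference genes, such as Actb and B2m, none differed by 1.5-fold.

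Of the receptor-signal genes of the Egr and Nr4a families, Egr1 and Nr4a1 were somewhat higher in Xcl1 high cells and Nr4a2 was not. Only 4 of the 7 were measured, since Egr2, Egr3 and Egr4 had too few UMIs. Egr1 was the only one past 1.5-fold, against the 2.35% of all measured genes that were that much higher. The median over the 4 was 1.46, against 1.00 for all measured genes. Egr1, a zinc finger factor induced within minutes of stimulation, stood at 122 CPM in high and 79.7 CPM in undetected cells, a fold of 1.54 (1.29 to 1.83). It passed 1.5-fold in 15 of 21 alternative settings, which include those that change only the gene filter and so leave a gene's fold as it was. Nr4a1, which encodes the orphan nuclear receptor Nur77 and is widely used as a reporter of TCR signal, stood at 50.2 and 33.7 CPM, a fold of 1.49 (1.12 to 1.95). Nr4a3 had a fold of 1.44 (0.97 to 2.07) and Nr4a2 of 0.89 (0.76 to 1.03). The intervals of Nr4a2 and Nr4a3 include 1, so neither differed beyond counting error. The Egr1 and Nr4a1 folds differed between depth ranges, which was not tested. In cells of 2000 to 2500, 2500 to 3000, 3000 to 4000 and at least 4000 UMIs, Egr1 had 1.95, 0.81, 1.61 and 1.46. Nr4a1 had 2.59, 0.64, 1.53 and 1.21 there. At 2500 to 3000 UMIs both intervals include 1 (0.40 to 1.48 and 0.17 to 1.70).

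These levels followed the Xcl1 count only at its upper end. Egr1 stood at 79.7, 97.0 and 57.7 CPM in cells with 0, 1 and 2 Xcl1 UMIs, and at 92.6, 141 and 172 CPM in cells with 3 to 4, 5 to 9 and at least 10. Nr4a1 stood at 33.7, 33.3 and 14.8 CPM in the first 3 classes and at 27.1, 46.2 and 126 CPM in the Xcl1 high classes. Cells just inside the limit were thus no higher than undetected cells in Nr4a1, and cells with 2 Xcl1 UMIs were lower in both genes. The Nr4a1 level of cells with at least 10 rested on 27 UMIs, 13 of them from 1 cell described below. The level of Egr3 rested on few UMIs, with 14 in cells of at least 10 Xcl1 UMIs (65.1 CPM, 35.6 to 109) against 8.54 CPM in undetected cells. Without the 45 cells of at least 10 Xcl1 UMIs the median fold of the 4 core genes was 1.22.

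A single cell weighed on these folds. The cell with most Xcl1, 90 UMIs among only 2178, also held 13 Nr4a1, 6 Egr1, 6 Egr3, 4 Nr4a2, 2 Egr2 and 2 Nr4a3 UMIs, and no TRB sequence was recovered from it. Leaving out the top cell of each side lowered the Nr4a1 fold from 1.49 to 1.23 and the Egr1 fold from 1.54 to 1.47. High Xcl1 and high core signal were not always found together. The cell with the next most Xcl1, 78 UMIs, held 2 Egr1 UMIs and none of Egr2, Egr3, Nr4a1, Nr4a2 or Nr4a3, and the cell after it, with 58 Xcl1 UMIs, held 3 Nr4a2 and 1 Nr4a3. At least 1 UMI of the 6 genes Egr1 to Egr3 and Nr4a1 to Nr4a3 was counted in 49.6% of the high (44.2% to 55.0%) and 43.7% of the undetected cells (42.1% to 45.4%). With every cell thinned to 2000 UMIs these shares were 37.2% (32.1% to 42.5%) and 35.7% (34.2% to 37.3%), whose intervals overlap.

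The core genes differed by TRB recovery. In cells with exactly 1 TRB sequence, 113 high and 1626 undetected, the Nr4a1 fold was 0.71 (0.33 to 1.33), the Egr1 fold 1.27 (0.91 to 1.73) and the median of the 4 genes 0.86. In cells with none, 212 high and 1933 undetected, the Nr4a1 fold was 2.02 (1.46 to 2.75), the Egr1 fold 1.76 (1.40 to 2.18) and the median 1.70. Without its top cells the Nr4a1 fold in cells with no TRB was 1.62. The Nr4a1 interval thus lay above 1 in cells without a recovered TRB and included 1 in cells with 1 TRB. The intervals of the Egr1 folds overlap, and the difference between the 2 sets of cells was not tested.

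**Figure D2:**
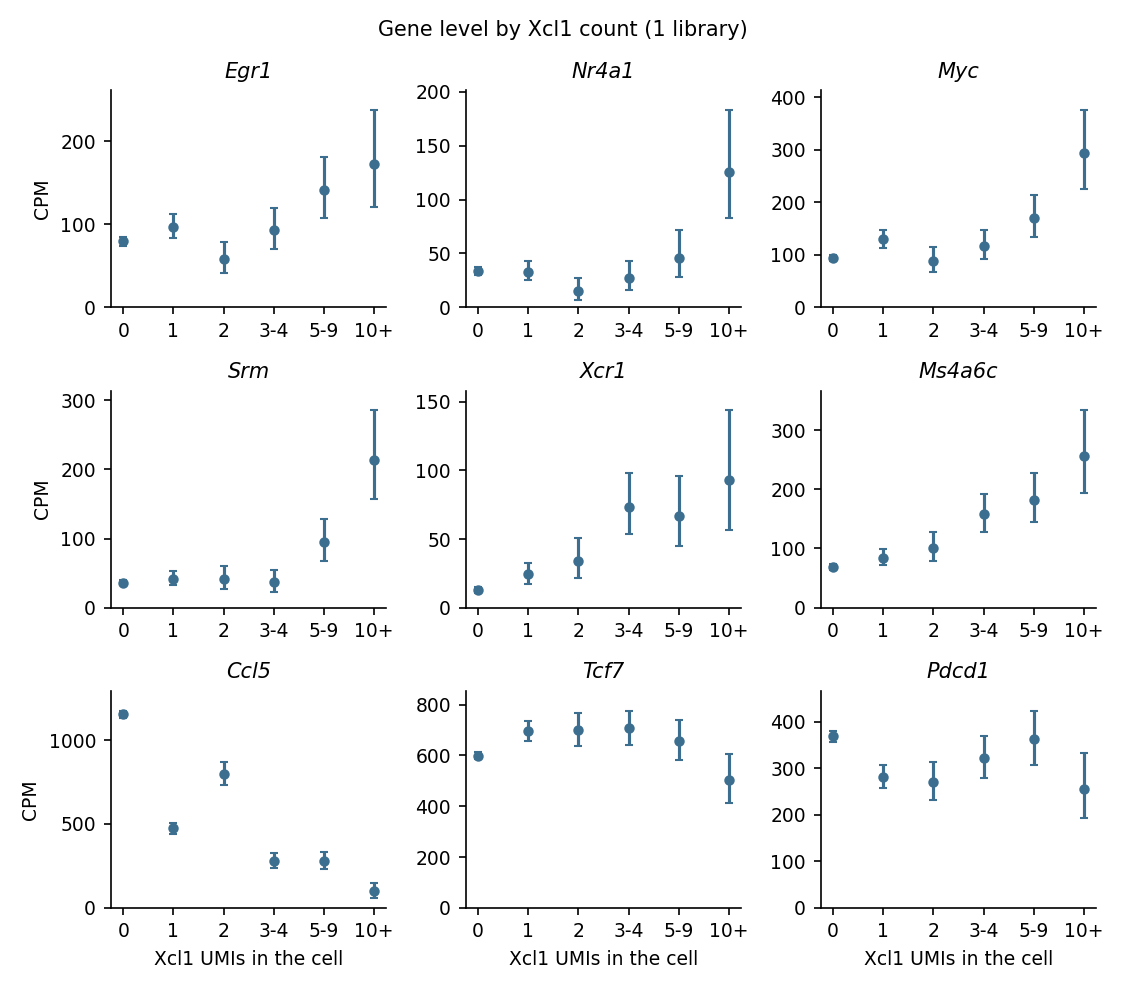
CPM of 9 genes (vertical axes, each from 0) by the number of Xcl1 UMIs in the cell, summed over all cells of the class in the 1 library, with exact Poisson 95% intervals. Egr1, Nr4a1, Myc and Srm are highest in cells with 10 or more Xcl1 UMIs, and Ccl5 is lowest there. Xcr1 and Ms4a6c are higher in every class with an Xcl1 UMI than in cells with none. In that class 13 of the 27 Nr4a1 UMIs came from 1 cell.

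Other genes of the receptor response were mixed. Of 26, 19 were measured, with 3 at least 1.5-fold higher and 1 lower, against 2.35% and 4.62% of all measured genes, and a median fold of 1.09. Myc, a growth-promoting transcription factor gene that receptor and cytokine signals raise, stood at 165 CPM in high and 93.9 CPM in undetected cells, a fold of 1.75 (1.505 to 2.04). Tnfrsf9, the costimulatory receptor 4-1BB, had a fold of 1.53 (1.18 to 1.97), and Nfkbid, an inhibitor of NF-kB family proteins, of 1.58 (1.09 to 2.25). Cd69, an early activation marker that holds cells in tissue, had 1.27 (1.13 to 1.42), and Nab2, a corepressor of Egr proteins, 1.30 (1.04 to 1.61). Dusp5, a phosphatase of ERK kinases, was lower at 0.53 (0.35 to 0.76). None of 20 measured immediate early and heat shock genes differed by 1.5-fold, with a median of 0.95, and Fos and Jun had folds of 0.92 and 1.08. None of 12 measured NF-kB genes did so, with a median of 1.02. Over all measured genes 6.97% differed that much either way.

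Genes of the nucleolus and known MYC targets were higher as a list. Of 25 genes 23 were measured, all 23 had a fold above 1, 21 had intervals above 1 and 8 were at least 1.5-fold higher, against the background of 2.35%. The median fold was 1.40. Srm, the spermidine synthase of polyamine metabolism and a direct MYC target, stood at 86.3 CPM in high and 36.3 CPM in undetected cells, a fold of 2.38 (1.91 to 2.95). The nucleolar GTPase gene Gnl3 had a fold of 1.71 (1.41 to 2.06) and the ribosome assembly factor gene Bop1 of 1.63 (1.24 to 2.10). Npm1 (nucleophosmin) stood at 1512 and 929 CPM, a fold of 1.63 (1.55 to 1.71). Nop58, Nolc1, Ppan and Eif5a had folds of 1.63, 1.58, 1.55 and 1.52. The smallest folds of the list were those of Rrp9, 1.12 (0.88 to 1.41), and C1qbp, 1.26. The genes of this list were chosen with earlier results of these data known, so the count describes these cells and is no independent support.

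This difference lay mainly in a minority of cells. The median share of a cell's UMIs in the 25 genes was 0.52% in high and 0.44% in undetected cells. A share of at least 1% was found in 51 of the 347 high cells, or 14.7% (11.1% to 18.9%), and in 131 of the 3676 undetected cells, or 3.56% (2.99% to 4.21%). Among cells with at least 10 Xcl1 UMIs it was found in 18 of 45, or 40% (25.7% to 55.7%), and among cells with 3 to 4 in 7.61%. The summed level of the list was 4992 CPM in undetected cells, 5424, 6874 and 12735 CPM in the 3 Xcl1 high classes, and without cells of at least 10 Xcl1 UMIs the median fold was 1.16. Srm itself was not above undetected cells at 3 to 4 Xcl1 UMIs (36.7 against 36.3 CPM) and stood at 94.7 and 214 CPM above that.

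The 51 high cells past 1% were deeper than the rest, with a median of 3922 UMIs, and 17 of them had 1 TRB, spread over 10 families. A core receptor-signal UMI was counted in 60.8% of them and in 47.6% of the other 296 high cells, without a match for depth. Unlike Nr4a1, the list was higher in both sets of cells, with a median of 1.59 in cells with 1 TRB and 1.39 in cells with none. The share of cells past 1% was 15.04% and 15.6% of high cells and 3.20% and 3.98% of undetected cells in these sets. Weighting the undetected cells to the depth of the high cells gave a median of 1.27. Of 13 measured genes of glycolysis and nutrient uptake, only Slc2a3, a glucose transporter, passed 1.5-fold, at 1.51 (1.02 to 2.17), and Tfrc, the transferrin receptor, had 1.48 (1.06 to 2.02).

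**Figure D3:**
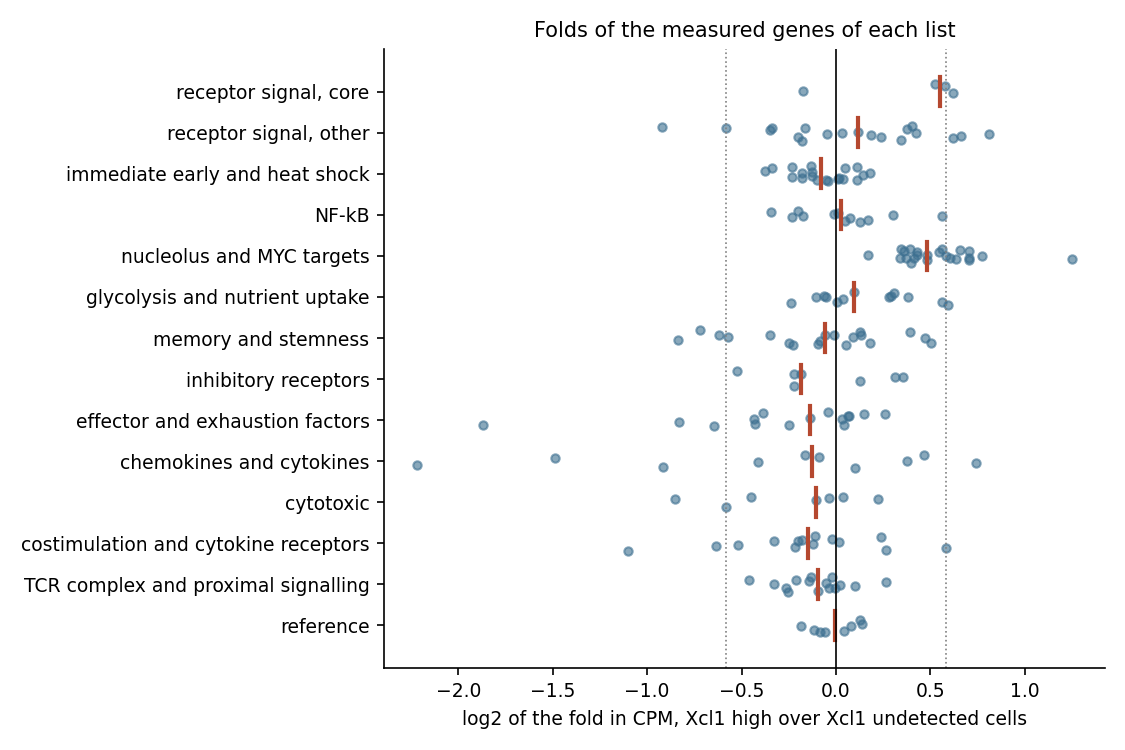
Log2 of the fold in CPM, Xcl1 high over undetected cells, for each measured gene (points) of 14 gene lists, with the list's median (red bar) and dotted lines at 1.5-fold. All 23 points of the nucleolus and MYC target list lie right of 0, while the memory, inhibitory receptor and immediate early lists lie around 0.

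Xcr1, the gene of the Xcl1 receptor, had the largest fold of all ranked genes. It stood at 74.6 CPM in high and 12.8 CPM in undetected cells, a fold of 5.84 (4.45 to 7.65), from 95 and 136 UMIs. The 95 UMIs came from 46 high cells, at most 7 in a cell, so no single cell set the value. A UMI of Xcr1 was counted in 13.3% of high (9.87% to 17.3%) and 2.72% of undetected cells (2.22% to 3.30%). With every cell thinned to 2000 UMIs the shares were 7.78% (5.19% to 11.1%) and 1.90% (1.49% to 2.40%), still without overlap.

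Unlike the receptor-signal genes, Xcr1 was already raised at low Xcl1. It stood at 12.8, 24.2 and 34.0 CPM in cells with 0, 1 and 2 Xcl1 UMIs and at 73.5, 67.0 and 93.1 CPM in cells with 3 to 4, 5 to 9 and at least 10. The fold was 3.02 to 9.08 across the 4 depth ranges, lowest in cells of at least 4000 UMIs, where its interval was 1.86 to 4.87. Other dendritic cell markers were not higher, but their UMIs were few. Itgax had 0 UMIs in high and only 4 in undetected cells. H2-Aa, of class II antigen presentation, stood at 2.35 CPM in high and 17.8 CPM in undetected cells. Its 190 UMIs in undetected cells came from 31 cells, with 30 in 1 of them. Batf3 had 82 UMIs in undetected cells and 0, 1 and 0 UMIs in cells with 3 to 4, 5 to 9 and at least 10 Xcl1 UMIs. These counts were few in high cells and were not compared within cells holding Xcr1. They do not tell whether dendritic cell transcripts go with Xcr1. Xcr1 was also higher in cells with 1 TRB, with a fold of 7.91 (5.11 to 12.1), and in cells with none, 5.22 (3.56 to 7.62).

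On the genome, in build GRCm38.p6 as RefSeq gives it, Xcl1 lies at chr1:164931644-164935522 and Xcr1 at chr9:123852315-123862029, on different chromosomes. The 250 bases before the Xcl1 start, chr1:164935523-164935772 on the minus strand, are shown because the comparison asks about receptor-signal factors. The capitals mark the matches to motifs of the calcium-responsive factor NFAT and of KLF factors.

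Xcl1 upstream: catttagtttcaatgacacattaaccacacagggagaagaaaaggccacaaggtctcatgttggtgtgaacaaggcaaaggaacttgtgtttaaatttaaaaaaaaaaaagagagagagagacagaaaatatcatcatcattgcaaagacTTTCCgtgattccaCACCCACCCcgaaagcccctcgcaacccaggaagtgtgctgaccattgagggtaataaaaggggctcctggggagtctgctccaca

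The NFAT core GGAAA, searched on both strands, had 1 match on the opposite strand from -100 to -96 relative to the start. It is present in 55.6% of 32817 such windows. The KLF core CACCC had 2 overlapping matches, at -86 and -82, and is present in 52.0% of windows. The EGR motif GCGNGGGCG (4.70% of windows), the NR4A motif AAAGGTCA (1.34%) and the AP-1 motif TGANTCA (6.75%) had none. A match is a description of letters, and these data hold no measurement of binding.

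The other genes of largest fold had varied roles. Ms4a6c, a membrane protein of the MS4A family, stood at 183 CPM in high and 68.9 CPM in undetected cells, a fold of 2.66 (2.28 to 3.08), with UMIs in 104 high cells. Its level was higher in each Xcl1 class than in the class before, from 68.9 CPM at 0 to 256 CPM at 10 or more. Marcksl1, which encodes an actin-regulating substrate of protein kinase C, had a fold of 2.36 (2.07 to 2.67), with UMIs in 150 high cells. Spp1, the cytokine osteopontin, had a fold of 3.04 (2.37 to 3.86) from 34 high cells, and Art3, an ADP-ribosyltransferase family gene, 1.97 (1.72 to 2.26). Ribosome and RNA processing genes outside the fixed list were among the 15 as well, with Rcl1 at 2.35, Rrp1b at 2.18, Dis3 at 2.04 and Gemin6, of the complex that assembles splicing particles, at 2.46. Pprc1, a coactivator of mitochondrial gene expression, had 2.23. Gm6093 (2.98), Tspan31 (2.13) and Atp10a (1.98) complete the 15 with Mylpf. The Mylpf fold of 3.02 rested on few cells, since 20 of its 69 UMIs came from 1 cell, and it was 1.09 after thinning.

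Cytokines and chemokines differed in both directions. Of 10 measured genes, 1 was at least 1.5-fold higher and 3 were lower, against 2.35% and 4.62% of all measured genes, and the median fold was 0.91. Ccl5 stood at 248 CPM in high and 1155 CPM in undetected cells, a fold of 0.21 (0.19 to 0.24). Ccl4 had a fold of 0.36 (0.19 to 0.62) and Ccl3 of 0.53 (0.28 to 0.93). Ccl5 had a UMI in 122 of the high and 1443 of the undetected cells. Its level was 473 and 800 CPM in cells with 1 and 2 Xcl1 UMIs, 279 and 277 CPM in the next 2 classes and 97.7 CPM in cells with at least 10. Ifng, the main effector cytokine, had a fold of 0.75 (0.61 to 0.92). Il2, a growth factor for T cells, had 1.38 (0.91 to 2.02). Tnfsf14, the ligand LIGHT, was the gene that was higher, at 1.67 (1.23 to 2.24). Tnf was below the filter with 25 and 74 UMIs, at a fold of 2.83 (1.72 to 4.5).

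Of 12 cytotoxic genes 7 were measured, with a median fold of 0.93, and only Gzmk, a granzyme of early memory and precursor CD8 cells, passed 1.5-fold, at 0.55 (0.49 to 0.63), against 4.62% of all measured genes lower. In cells with 1 TRB the Gzmk fold was 0.61. It was 0.84 with families held equal and 0.90 (0.58 to 1.34) within the second largest family described below, neither past 1.5-fold. Nkg7, a granule protein, had 0.67 (0.64 to 0.70) and Prf1, perforin, 0.73 (0.63 to 0.85). Gzma, Gzmb and Fasl had 1, 3 and 0 UMIs in high cells against 93, 171 and 164 in undetected cells. Because 295 undetected and 12 high cells carried at least 3 effector markers, these folds were recomputed without them. Cells with at least 2 B cell or NK markers were left out as well. The folds of Gzmk, Nkg7 and Prf1 were then 0.62, 0.72 and 0.80. That of Ccl5 was 0.40. Ccl5 and Prf1 are among the effector markers that chose the cells left out, so their recomputed folds are no independent check. In cells with 1 TRB the Ccl5 fold was 0.31, and it was 0.44 with families held equal.

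The genes of largest fold lower were mostly not those of CD8 T cells. Hbb-bs, Hba-a1, Hba-a2 and Hbb-bt encode hemoglobin, and 1 undetected barcode held 1104 of the 1155 Hbb-bs UMIs. Without the top cell of each side the Hbb-bs fold was 0.66 in place of 0.036. Cd74 and H2-Aa, of class II antigen presentation, had folds of 0.062 and 0.13, with up to 152 Cd74 UMIs in a single undetected cell. In cells with 1 TRB the Cd74 fold was 0.68. The other 3 genes, besides Ccl5, were spread over cells. Twist1, a helix-loop-helix factor that restrains inflammatory T cell responses, had 0.13 (0.027 to 0.39), with UMIs in 156 undetected and 3 high cells. Errfi1, a feedback inhibitor of EGF receptor signalling, had 0.23 (0.085 to 0.52) and Coch, an extracellular matrix gene, 0.22 (0.13 to 0.35). With families held equal the folds of Twist1, Errfi1 and Coch were 0.16, 0.31 and 0.49. Coch was uneven over the families described below. In undetected cells it stood at 176 CPM in the largest, 3.21 CPM in the second largest and 62.5 CPM in all others pooled.

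Of the memory and stemness genes all 19 were measured. None was at least 1.5-fold higher and 3 were lower, against 2.35% and 4.62% of all measured genes, and the median fold was 0.96. Tcf7, which encodes the stem-like T cell factor TCF1, stood at 656 CPM in high and 599 CPM in undetected cells, a fold of 1.10 (1.02 to 1.18). Lef1 and Slamf6 had folds of 0.99 and 0.96. Id3, a factor of long-lived memory precursors, had 1.31 (1.18 to 1.46), Foxp1, a factor of quiescence, 1.39 (1.24 to 1.54) and Bcl6 1.42 (1.07 to 1.85), none past 1.5. The lower genes were Il7r, the survival receptor for IL-7, at 0.65 (0.50 to 0.84), Satb1, a chromatin organiser, at 0.56 (0.30 to 0.96), and Il6ra at 0.61 (0.33 to 1.02). The Il7r fold moved with depth, at 1.01, 0.86, 0.78 and 0.51 from the lowest to the highest of the 4 depth ranges. It passed 1.5-fold in 13 of 21 alternative settings, among them those that change only the gene filter and leave a gene's fold as it was. Within the largest family the Il7r fold was 4.07 (1.24 to 10.5), from 5 UMIs in 2 high cells. Klf2, which keeps T cells circulating, had 0.84 (0.81 to 0.88).

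The list was lower in the class with most Xcl1. Its summed level was 6293 CPM in undetected cells, 6793 and 6223 CPM at 3 to 4 and 5 to 9 Xcl1 UMIs, and 3680 CPM at 10 or more. In the 45 cells of that class, Klf2 stood at 926 CPM against 2474 CPM in undetected cells, Il7r had 2 UMIs (9.31 CPM, 1.13 to 33.6, against 78.4 CPM) and Tcf7 stood at 502 CPM against 599 CPM. A lower level in these 45 cells was not particular to this list. The summed TCR complex list stood at 7151 CPM against 9023 CPM, the cytotoxic list at 2308 against 4250 CPM and the reference genes at 35012 against 41396 CPM. Lists that were higher there include the core receptor-signal genes (623 against 324 CPM) and glycolysis and nutrient uptake (4727 against 3151 CPM). The nucleolus list was higher as well, as given above.

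Inhibitory receptors were not higher as a list in Xcl1 high cells. Of 12 inhibitory receptors 7 were measured, none differed by 1.5-fold, against 6.97% of all measured genes, and the median fold was 0.88. Pdcd1, the gene of PD-1, stood at 325 CPM in high and 369 CPM in undetected cells, a fold of 0.88 (0.79 to 0.97). Lag3 had 0.86 (0.76 to 0.97), Tigit 0.86 (0.69 to 1.05) and Ctla4 0.70 (0.56 to 0.86). Cd160, Btla and Vsir were above 1 at 1.28, 1.24 and 1.09. Havcr2, the gene of TIM-3 and a marker of terminal exhaustion, had 2 UMIs in high and 92 in undetected cells, too few for the filter. Of 15 measured effector and exhaustion factors none was at least 1.5-fold higher and 3 were lower, against 2.35% and 4.62% of all measured genes, with a median of 0.91. Tox, the factor that maintains exhausted cells, had 1.11 (1.03 to 1.19) and Batf, a partner of AP-1 and IRF4, 1.19 (1.11 to 1.28). The lower genes were Maf, at 0.27 (0.17 to 0.42), Id2, at 0.56 (0.45 to 0.69), and Tox2, at 0.64 (0.46 to 0.87). Eomes and Runx3, factors of effector and memory CD8 cells, had 0.74 and 0.76.

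Among receptors, Ifngr1, the ligand-binding chain of the interferon gamma receptor, was at 0.47 (0.36 to 0.59) and Cd2, an adhesion and costimulatory receptor, at 0.64 (0.54 to 0.77). Of the 2 targeted genes, Bcor stood at 232 CPM in high and 169 CPM in undetected cells, a fold of 1.37 (1.21 to 1.55). Zc3h12a, whose protein degrades cytokine transcripts, stood at 43.9 and 51.5 CPM, a fold of 0.85 (0.64 to 1.12). These transcript levels do not check the edit of either gene in a given cell.

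TCR families were defined by the TRB chain, whose CDR3 loop is made by joining V, D and J segments and is shared by the descendants of 1 T cell. A family holds the cells with exactly 1 productive TRB and the same CDR3 nucleotide sequence. Of the 4801 cells 2062 could be placed in 241 families, 113 of them Xcl1 high, in 46 families. Of the 46, 32 held 1 high cell and 14 held 2 or more. Xcl1 high cells therefore came from many T cell ancestors. The CDR3 sequences of the 2 largest families and of the 2 others described below are shown to tell them apart, with the conserved first and last codons in lower case and the loop between them in capitals.

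TRBV15 TRBJ1-1 family: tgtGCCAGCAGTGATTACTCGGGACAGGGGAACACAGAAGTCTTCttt
TRBV12-2+TRBV13-2 TRBJ2-3 family: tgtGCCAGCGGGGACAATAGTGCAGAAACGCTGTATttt
TRBV13-3 TRBJ2-1 family: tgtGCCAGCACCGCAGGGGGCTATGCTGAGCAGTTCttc
TRBV3 TRBJ1-1 family: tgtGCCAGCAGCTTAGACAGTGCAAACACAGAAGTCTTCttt

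The 2 largest families, of similar size, had different shares of Xcl1 high cells, with intervals that overlap. The TRBV15 TRBJ1-1 family had 12 high cells of 476, or 2.52% (1.31% to 4.36%), and an Xcl1 level of 94.4 CPM (78.5 to 113). The family whose V segment is given as TRBV12-2+TRBV13-2, with TRBJ2-3, had 29 of 463, or 6.26% (4.23% to 8.87%), and 214 CPM (190 to 239). That family alone gave 25.7% of the high cells with 1 TRB. Their median depths were 2572.5 and 2768 UMIs. When every barcode holding the CDR3 amino acid sequence was counted, the shares were 3.67% (2.22% to 5.67%) and 6.31% (4.33% to 8.84%). The CDR3 of these families differ in length, 48 and 39 bases, and in their TRBJ segment.

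The TRBV13-3 TRBJ2-1 family had the highest share among the 12 largest, 7 of 47, or 14.9% (6.20% to 28.3%), and 338 CPM (246 to 454), at a median of 2592 UMIs. Its interval does not overlap that of the TRBV15 TRBJ1-1 family and overlaps those of the other 10. The same TRB stood in 49 further cells that carried a 2nd TRB, of which 6, or 12.2% (4.63% to 24.8%), were Xcl1 high. The TRB of the TRBV15 TRBJ1-1 family stood in 40 cells with a 2nd TRB, of which 5, or 12.5% (4.19% to 26.8%), were high. The 10 families of ranks 3 to 12 together had 27 high cells of 581, or 4.65% (3.08% to 6.69%). Families of 1 or 2 cells had 19 of 210, or 9.05% (5.54% to 13.8%), against 5.48% (4.54% to 6.55%) over all cells with 1 TRB.

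The highest Xcl1 level of a family shown here came from few cells. The TRBV3 TRBJ1-1 family of 16 cells had 4 high cells and 2650 CPM, but 1 cell gave 48.1% of its Xcl1 UMIs, with 78, and another held 58. These were the cells with the 2nd and 3rd most Xcl1 of all 4801. The share of high cells was 8.25% (7.21% to 9.38%) in cells with no TRB and 13.1% (8.39% to 19.2%) in the 168 cells with 2 or more. By constant segment it was 3.94% for TRBC1 contigs, as in the TRBV15 TRBJ1-1 family, and 6.88% for TRBC2 contigs, as in the TRBV12-2+TRBV13-2 TRBJ2-3 family. The transcript Trbc1 had a fold of 0.57 and Trbc2 of 1.09.

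**Figure D4:**
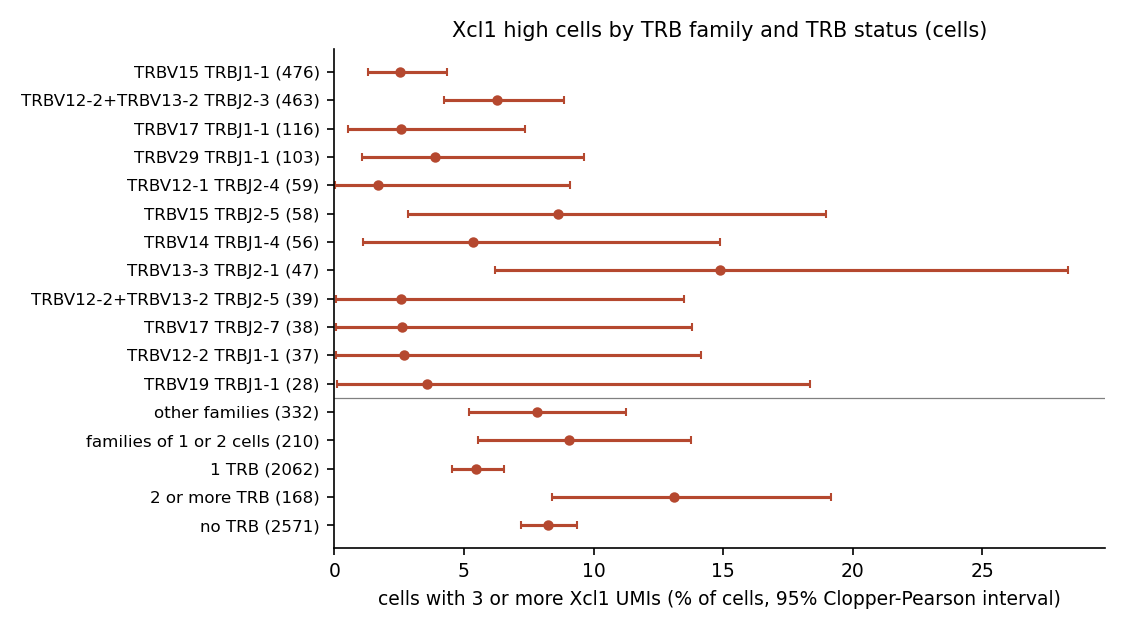
Share of cells that are Xcl1 high (%) with Clopper-Pearson 95% intervals, for the 12 largest TRB families (above the line, with their number of cells) and for groups of cells by family size and TRB status (below it). The TRBV15 TRBJ1-1 family lies at 2.52%, the TRBV12-2+TRBV13-2 TRBJ2-3 family at 6.26% and the TRBV13-3 TRBJ2-1 family at 14.9%.

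Xcr1 was higher in Xcl1 high cells within the TRBV12-2+TRBV13-2 TRBJ2-3 family. There it stood at 226 CPM in the 29 high cells and 26.8 CPM in the 317 undetected cells, a fold of 8.42 (4.57 to 15.5). In the TRBV15 TRBJ1-1 family none of the 12 high cells had an Xcr1 UMI, and its 410 undetected cells had 3, so no fold is given. Pooled over all families but the 2 largest, which is not a fold within a family, it was 5.60 (2.82 to 10.8). Among the 12 largest families, the level over all cells was 92.3 CPM in the TRBV13-3 TRBJ2-1 family and 42.4 CPM in the TRBV12-2+TRBV13-2 TRBJ2-3 family. In the other 10 it was 0 to 11.4 CPM, including 5.33 CPM in the TRBV15 TRBJ1-1 family.

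Other folds moved with the family make-up. Ccl5, 0.31 (0.26 to 0.36) in all cells with 1 TRB, was 0.80 (0.48 to 1.27) within the TRBV12-2+TRBV13-2 TRBJ2-3 family, where undetected cells also had a low level of 244 CPM. In all families but the 2 largest it was 0.26 (0.21 to 0.31). The Srm fold was 6.54 (3.14 to 13.3) within the TRBV12-2+TRBV13-2 TRBJ2-3 family and 2.54 there without the top cell of each side. Npm1 had 1.78 in that family and 1.00 without the top cells, so 1 cell carried its difference there. In all families but the 2 largest Npm1 had 1.76 (1.59 to 1.95) and 1.43 without the top cells. Id3 had 1.80 (1.30 to 2.44) and Pdcd1 1.58 (1.03 to 2.35) within the TRBV12-2+TRBV13-2 TRBJ2-3 family. In all families but the 2 largest Id3 had 1.52 (1.21 to 1.89) and Pdcd1 0.85 (0.68 to 1.05). Pdcd1 thus lay on opposite sides of 1 in these sets, a difference that was not tested.

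Weighting the undetected cells to the families of the high cells used 30 families, with 97 high and 1298 undetected cells. The Xcr1 fold was then 6.20, that of Ms4a6c 2.05, of Myc 1.66 and of Ccl5 0.44. The Nr4a1 fold was 0.93 and that of Egr1 1.35. With families held equal, the median fold was 1.02 for the core receptor-signal genes and 1.75 for the nucleolus and MYC target list. This setting holds only cells with 1 TRB. In all cells with 1 TRB the unweighted medians were 0.86 and 1.59, and the unweighted Nr4a1 fold was 0.71.

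**Figure D5:**
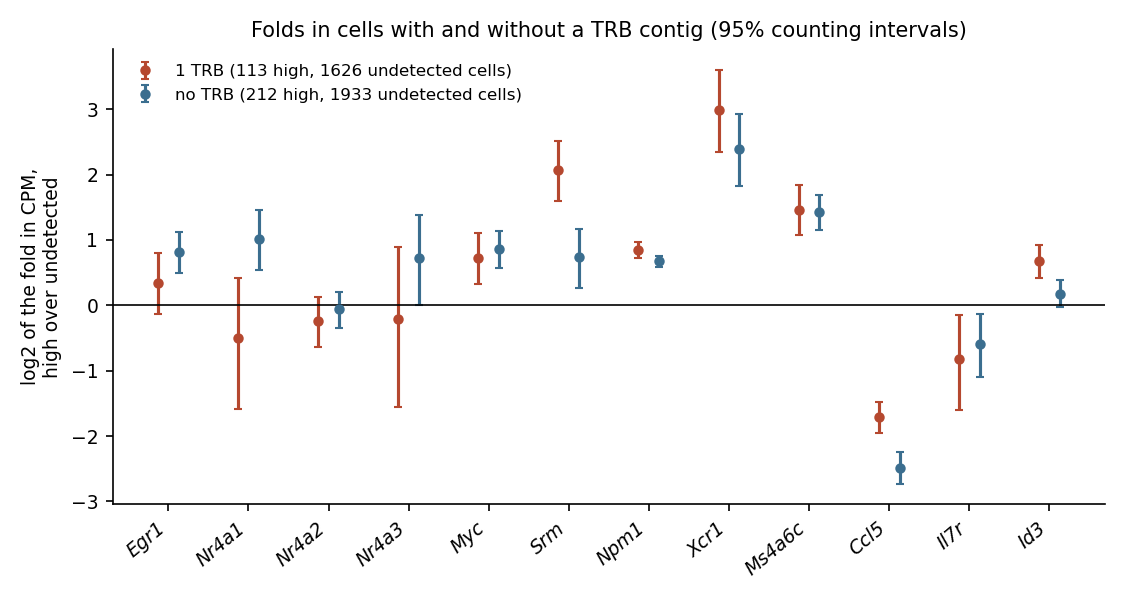
Log2 of the fold in CPM, Xcl1 high over undetected cells, for 12 genes in cells with exactly 1 TRB (red) and cells with no TRB (blue), with 95% counting intervals. Nr4a1 lies on opposite sides of 0 in the 2 sets, while Myc, Srm, Npm1, Xcr1 and Ms4a6c lie above 0 and Ccl5 below 0 in both.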

How the data were processed

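The deposited RNA matrix of the authors holds raw UMI counts per gene and barcode, not normalized, with 20794 genes, 10387 barcodes and at least 500 UMIs per barcode. Per the submitters' processing notes, which give no role or order, the tools were STAR 2.6.1a, featureCounts 2.0.1 and cutadapt 1.17, and the build GRCm38. No source used here names the assembler of the TCR contigs. The deposited contig table gives counts of UMIs and reads per TCR contig and was joined on the barcode, with 4590 of its 5479 barcodes in the RNA matrix. The clonotype table was not used here.

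The members and gene lists were chosen with earlier results of these data known. Counts were summed over cells and divided by total UMIs (1274111 in high and 10657424 in undetected cells). Counts have exact Poisson, shares Clopper-Pearson and folds exact conditional 95% intervals, for counting error only, since UMIs share cells. Depth was weighted over 8 strata of UMIs, or cells were thinned to 2000 UMIs with seed 1. No doublet caller was run, and barcodes with 2 TRB were left out in an alternative. Every gene of the lists could be named, besides the 15 of largest fold higher and 10 lower, at least 1.5-fold with an interval leaving out 1, without TCR segment, immunoglobulin and mitochondrial genes and Xcl1. Cd244a was matched by its identifier. Ccl1, Ccl9 and Csf2 had no entry in the matrix used. Scripts ran on python 3.11.15, numpy 2.4.6, scipy 1.17.1 and pandas 2.3.3 and were tested on simulated data. Alternatives changed the Xcl1 limit, the depth, the mitochondrial limit, families, doublets, other cell types, cell weights, filters and totals.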

Additional observations from a re-analysis of the deposited data

How the results depend on the processing

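Each result was recomputed under up to 21 alternatives, of which leaving out very deep cells, cells of 10 or more Xcl1 UMIs, the top cells of a gene and the largest family, and taking only cells with 1 TRB or with none, were chosen after seeing the data. No paired analysis was possible because there is 1 library and cells are not replicates. The medians of the memory and inhibitory receptor lists moved by less than the median counting interval of their genes throughout. The share of Xcl1 high cells, 7.23%, was 11.6% at a limit of 2 Xcl1 UMIs, 3.395% at 5, 11.98% with at least 3000 UMIs per cell, 5.41% with 1500, 4.44% after thinning, 6.35% without cells of 10 or more Xcl1 UMIs, 5.48% in cells with 1 TRB and 8.25% in cells with none. The 162 genes at least 1.5-fold higher, 2.35%, became 255 (5.24% of 4867 measured genes) at a limit of 5 Xcl1 UMIs. They were 99 (2.82% of 3506) after thinning and 326 (3.8% of 8568) at an expected count of 10. With no filter they were 2691 (14.1% of 19031), and without cells of 10 or more Xcl1 UMIs 76 (1.2% of 6339). The 318 lower, 4.62%, became 178 (5.08%) after thinning and 202 (6.61% of 3057 measured genes) with families weighted. At an expected count of 10 they were 575 (6.71%) and with no filter 6807 (35.8%). The median of the core receptor-signal genes, 1.46, was 0.86 in cells with 1 TRB and 1.02 with families weighted, which uses only cells with 1 TRB. That of the nucleolus and MYC target list, 1.40, was 1.81 at a limit of 5 Xcl1 UMIs, 1.75 with families weighted and 1.16 without cells of 10 or more. The H2-Aa fold, 0.13, was 1.63 with families weighted, from 1 UMI in the high cells used. Where no cause is given, the cause was not tested. Of 924 folds of 44 named genes under the alternatives, 130 moved past their counting interval. The 924 include the expected count of 10 and the setting with no filter, in which a gene's fold cannot move. Of folds past 1.5-fold only that of H2-Aa crossed 1. Among folds under 1.5-fold, Nr4a1 crossed it in cells with 1 TRB (0.71) and with families weighted (0.93), Nr4a3 in cells with 1 TRB (0.87), Ifng at a limit of 5 Xcl1 UMIs (1.05) and Tcf7 in cells with no TRB (0.998).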
